A study of Mus musculus with 6 samples.

Results

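The TNF superfamily was taken from the gene table by name, as every row whose symbol starts with Tnfsf or Tnfrsf or is one of 12 family genes with older names (Tnf, Lta, Ltb, Ltbr, Cd27, Cd40, Cd40lg, Fas, Fasl, Eda, Edar and Eda2r). This gave 42 of 28539 rows, which hold 44 gene symbols. Of these rows, 39 stand for 1 member alone and 3 merge members with other genes. Cd70, Relt and Ngfr also belong to the family but are not taken by these names. The values come from RNA-seq of polyadenylated RNA from whole corneas of female C57BL/6J mice aged 6 to 8 weeks, with 2 samples per group. Untreated corneas form the day 0 group. The other groups were collected once 5 or 15 days had passed since an alkali burn, and the labels call them post-operative, with the word regression added at day 15. No labelled group was operated on or handled without a burn. The labels name no genotype, no other agent and no pooling of animals, and they do not say whether the paired samples of a group come from separate mice.

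Ligands of this family are mostly trimeric proteins on the cell surface, some of which are shed, and each binds 1 or a few receptors. Some receptors carry a death domain and can start apoptosis or necroptosis through the adaptors Fadd and Tradd and the kinase Ripk1. Receptors without a death domain mostly bind Traf adaptors directly, and receptors of both kinds can switch on the transcription factor NF-kB. A few receptors are decoys that bind ligand without a full signalling tail. In the eye the family is best known for TNF in inflammation and for Fas ligand in immune privilege.

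Levels below are the authors' deposited FPKM, which scale fragments by transcript length and library size, with 1 value per group over its samples. The range in brackets after a value is the authors' interval for that group, whose level is not stated. No column holds a single sample, so the spread between replicates is unknown and no test across samples was possible. Here a row counts as apart between 2 groups if its intervals are disjoint, its larger FPKM is 1 or more, and log2 of the ratio of (FPKM + 1) is 1 or more in size. The added 1 is a pseudocount, and every log2 ratio below includes it, so differences of low genes are understated. Depth is unknown, and a value listed at 0 is not proof of absence.

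Loci with an FPKM of 1 or more numbered 14071 in day 0, 14067 in day 5 and 13664 in day 15 corneas. The epithelial crystallin Aldh3a1 was at 9149.9, 303 and 866 in day order and the keratocyte proteoglycan Kera at 516, 11.2 and 16.2. Both were lower and apart from day 0 at day 5, and Kera also at day 15. Of 4 epithelial rows, 1 was lower and apart at day 5 and 0 at day 15, and of 4 keratocyte rows 2 and 1. Over all loci that reached 1 FPKM, 2.5% were lower and apart at day 5 and 1.81% at day 15. In each list 3 rows had lower values than day 0 at both later days and 1 had higher values. The higher ones were Krt14 at 180, 500 and 760 and Lum at 237, 243 and 286. The epithelial keratin Krt12 has no usable day 0 value because its status there was not OK. The samples also held neighbouring tissue: in day order, 4 lens genes summed to 281, 25.5 and 188 FPKM, 4 skeletal muscle genes to 494, 299 and 66.3, and 5 conjunctival and goblet cell genes to 1536, 2913 and 9441. Neutrophil markers (9 rows) summed to 22.3, 404 and 104. Of the 5 rows that reached 1 FPKM at day 0 or 5, 4 were higher and apart at day 5. Of the 4 that reached it at day 0 or 15, 3 were higher and apart from day 0 at day 15. Macrophage markers (8 rows) summed to 66.3, 262 and 339, with 3 and 5 rows apart, and blood endothelial markers (6 rows) to 13.3, 63.0 and 64.3, with 4 and 4 apart. The shares higher and apart over all loci that reached 1 FPKM were 3.42% at day 5 and 2.91% at day 15. Most of the neutrophil sum came from S100a8, at 1.50, 140 and 34.1, and S100a9, at 19.5, 242 and 63.1. Cxcr2 and 1 row of Csf3r were the other called rows of that list. In the neutrophil list Elane was listed at 0 in every group and Mpo at 0 at days 0 and 15. Camp and Ngp were highest at day 5, at 0.818 and 0.222, and were not called.

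Day 5 corneas are compared with day 0 corneas for the early state after the burn. Tnfsf11, the ligand RANKL that drives bone-resorbing osteoclasts, and Tnfsf10, the death ligand TRAIL, were higher and apart at day 5. So were Tnfrsf11b, the secreted RANKL decoy osteoprotegerin, Tnfrsf23, a TRAIL decoy receptor of the mouse, its cluster neighbour Tnfrsf26, and Eda2r, a receptor for 1 form of ectodysplasin. The log2 ratios were 3.16 for Tnfrsf23, 2.34 for Tnfsf10, 2.30 for Tnfsf11, 1.71 for Tnfrsf26, 1.52 for Tnfrsf11b and 1.35 for Eda2r. Thus 6 of the 27 family rows that reached 1 FPKM in these groups (22.2%) were higher and apart, beside 3.42% of all 15576 such loci. A row lower and apart was the merged row of Cd27 and Mir8113, 1 of 27 (3.7%), beside 2.5% of all loci. Over all 42 rows, 32 values were higher and 10 lower, with a median log2 ratio of 0.25. Over all 28539 rows, 11117 were higher, 12141 lower and 5281 equal, with a median of 0. Among rows that reached 1 FPKM the median was 0.60 in the family and -0.09 over all loci. Rows under 1 FPKM in both groups could not be called. In whole tissue, a change in the number of cells of a type and a change of RNA per cell cannot be told apart. The summed neutrophil, macrophage and endothelial markers were higher at day 5 in the same samples. The corneal genes Aldh3a1 and Kera were lower, while Krt14 and Lum were not. The part of such cells in the family's differences was not tested.

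**Figure D1:**
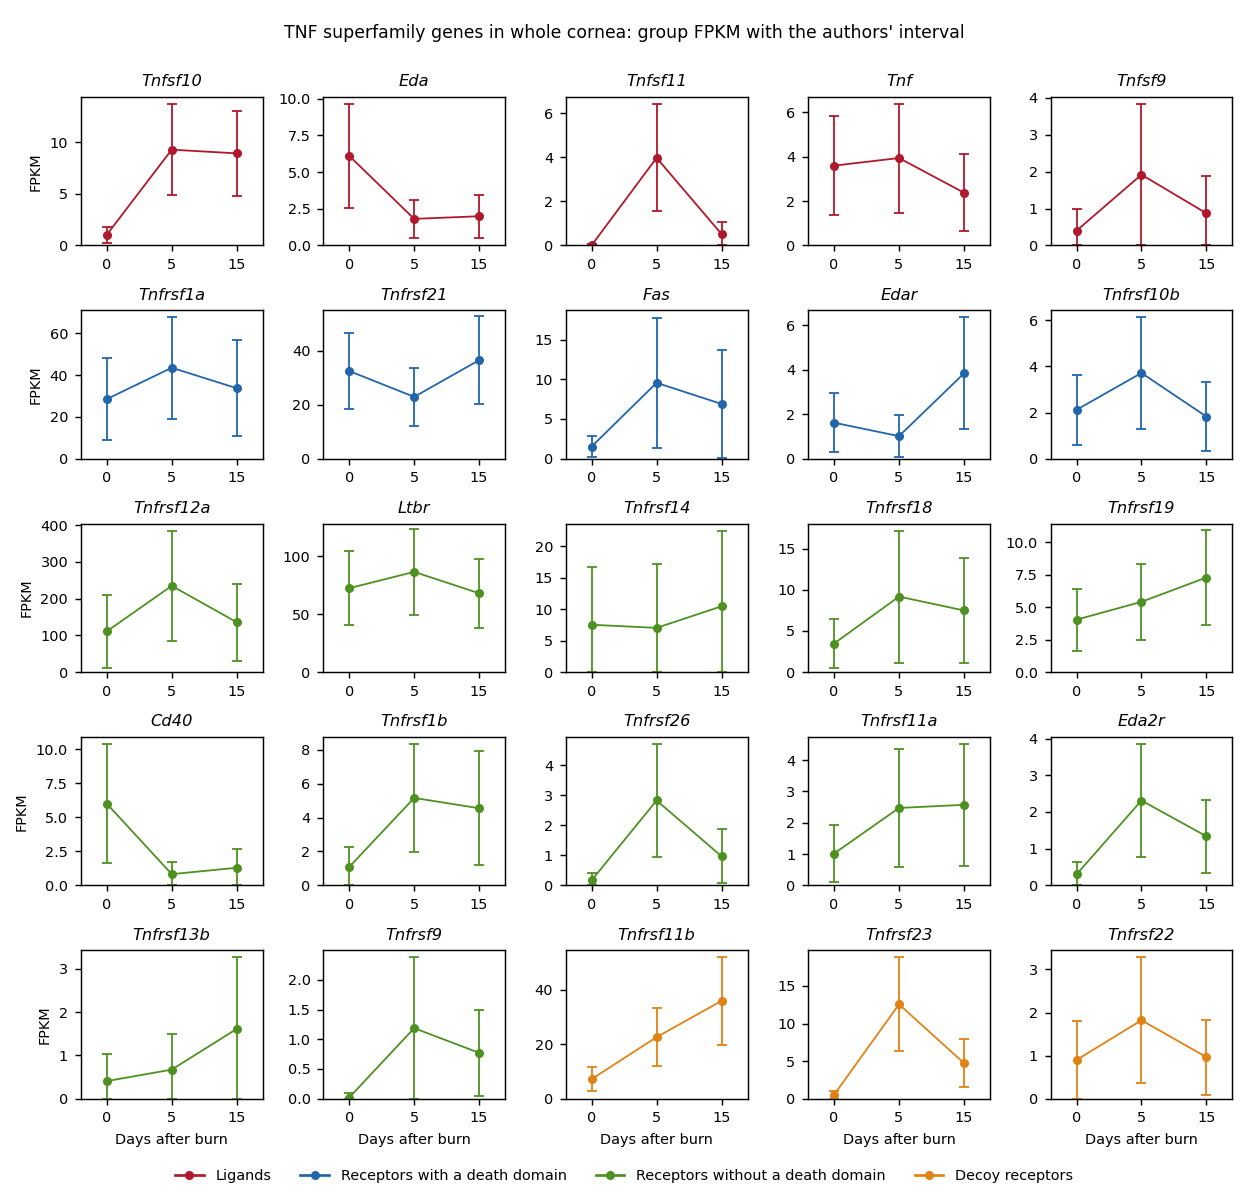
FPKM (y axis, linear, from 0, own scale in each panel) at 0, 5 and 15 days after the burn (x axis) for the 25 single-member rows with FPKM of at least 1 in any group. Points are the authors' group values, bars their interval, lines join the days and colours give the role. Tnfsf11 stands at 3.98 at day 5 only, Tnfrsf11b is higher at each later day up to 35.9, and Eda and Cd40 are highest at day 0.

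In the RANKL system, the ligand was the only family member apart between day 5 and day 15. Tnfsf11 (chromosome 14, 78277445 to 78308043 on the minus strand of mm10) was at 0.00697 (0 to 0.0422) at day 0, 3.98 (1.54 to 6.41) at day 5 and 0.515 (0 to 1.07) at day 15. Day 5 alone was high, and its interval overlapped neither of the others. The Tnfsf11 calls end when an FPKM of 5 is required. The nearest bounds of the day 5 and day 0 intervals differ 36.5-fold. A fold from the FPKM themselves would rest on a day 0 value whose interval reaches 0. Tnfrsf11b (chromosome 15, 54250619 to 54278484, minus strand) was at 7.19 (2.79 to 11.6) at day 0, 22.6 (11.9 to 33.3) at day 5 and 35.9 (19.9 to 51.9) at day 15. The decoy was 3.14-fold higher at day 5, with interval bounds that only just parted (1.02-fold), and 4.99-fold higher at day 15. Tnfrsf11a, the signalling receptor RANK, was at 1.02 (0.106 to 1.92), 2.47 (0.583 to 4.36) and 2.57 (0.629 to 4.51), with overlapping intervals throughout. Osteoprotegerin exceeded RANKL without interval overlap at all 3 days, and the ligand exceeded RANK at day 5 only, there with overlap.

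The TRAIL system differed in its ligand and in 1 decoy. Tnfsf10 (chromosome 3, 27317028 to 27342427, plus strand) was at 1.03 (0.240 to 1.82) at day 0, 9.29 (4.87 to 13.7) at day 5 and 8.93 (4.82 to 13.0) at day 15. Both later groups lay above day 0 and close to each other, 9.005-fold higher at day 5 and 8.66-fold at day 15. Tnfrsf10b, the death receptor for TRAIL, was at 2.12 (0.594 to 3.64), 3.72 (1.30 to 6.13) and 1.82 (0.334 to 3.31), and its intervals overlapped at all days. Tnfrsf23 (chromosome 7, 143665809 to 143685872, minus strand) was at 0.520 (0 to 1.08), 12.6 (6.32 to 18.8) and 4.73 (1.58 to 7.88). It was highest at day 5 and still apart from day 0 at day 15, at a log2 ratio of 1.91, a call that ends when an FPKM of 5 is required. The other decoy, Tnfrsf22, was at 0.898 (0 to 1.81), 1.82 (0.364 to 3.28) and 0.964 (0.0926 to 1.84), with overlap at all days. Tnfrsf26, which lies beside Tnfrsf22 on chromosome 7 (143607659 to 143628722), was at 0.169 (0 to 0.418), 2.82 (0.951 to 4.70) and 0.966 (0.0661 to 1.87), and was apart at day 5 alone.

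The transcripts of the decoy pair are close copies. The longest Tnfrsf22 and Tnfrsf23 transcripts of GENCODE M21 aligned over 2378 bases at 93.3% identity, and 19.3% of the 50-base words of Tnfrsf23 also occur in another gene, most of these in Tnfrsf22. How the authors' counting split such reads is not stated, so that the division of signal between these genes is uncertain. For Tnfrsf26 the share was 1.89%, all in E230032D23Rik, a gene on the other strand that overlaps exons of Tnfrsf23 and Tnfrsf26. The labels do not give strandedness, so sense and antisense reads cannot be told apart there. Among the 44 members, 33 shared under 1% of their 50-base words with other genes, including Tnfsf10, Tnfsf11, Tnfrsf11b and Eda2r.

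Promoters of the members apart at day 5 are shown because these genes stood higher together. RefSeq (GRCm38.p6) start sites were at hand for 35 of the 44 members, among them 4 of the 6 apart at day 5. The 150 bases before the start site are printed 5' to 3', with the promoter of Tnfrsf9 as a contrast that holds matches, and capitals mark motif matches.
Tnfsf11: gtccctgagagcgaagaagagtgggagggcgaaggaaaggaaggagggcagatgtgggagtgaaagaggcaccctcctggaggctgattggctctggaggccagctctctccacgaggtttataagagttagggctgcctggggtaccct
Tnfsf10: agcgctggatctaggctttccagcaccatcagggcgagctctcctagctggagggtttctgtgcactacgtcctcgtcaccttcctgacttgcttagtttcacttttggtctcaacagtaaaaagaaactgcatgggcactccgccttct
Tnfrsf23: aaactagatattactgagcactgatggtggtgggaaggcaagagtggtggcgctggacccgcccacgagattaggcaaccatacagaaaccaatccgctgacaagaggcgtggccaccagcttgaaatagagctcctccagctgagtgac
Eda2r: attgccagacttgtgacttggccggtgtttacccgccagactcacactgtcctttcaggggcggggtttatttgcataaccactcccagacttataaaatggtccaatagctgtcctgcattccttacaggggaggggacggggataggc
Tnfrsf9: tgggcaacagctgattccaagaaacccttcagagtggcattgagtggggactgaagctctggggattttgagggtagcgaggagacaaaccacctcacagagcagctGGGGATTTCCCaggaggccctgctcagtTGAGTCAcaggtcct
These stretches lie at chr14:78308044-78308193 (minus strand), chr3:27316927-27317076 (plus strand), chr7:143685876-143686025 (minus strand), chrX:97377210-97377359 (minus strand) and chr4:150927849-150927998 (plus strand). RefSeq and GENCODE starts differ for some genes. The stretches of Tnfsf10 and Eda2r run into the GENCODE genes, which start at 27317028 and 97377216. That of Tnfrsf9 lies wholly within its GENCODE gene, from 150914562 to 150946102. The motifs searched on both strands of the 250 bases before each start were the AP-1 site TGANTCA, the kappa-B consensus and the core of the interferon element, which is GAAA, any 2 bases and GAAA. None of the 4 promoters of the higher members held any of these letters in that window. The promoter of Tnfrsf9, a T cell costimulatory receptor, held overlapping kappa-B matches (the first run of capitals) and an AP-1 match (the second run). Of 39 family promoters, 6 (15.4%) held the AP-1 site, 4 (10.3%) the kappa-B consensus and 4 (10.3%) the interferon core, beside 6.75%, 7.25% and 2.98% of all 32851 promoters. A match is a description of letters and not a binding site.

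The ectodysplasin genes, which shape skin appendages and eyelid glands, were highest on different days. The ligand Eda (chromosome X, 99975606 to 100400762, plus strand) was at 6.11 (2.56 to 9.65) at day 0, 1.81 (0.499 to 3.12) at day 5 and 1.99 (0.523 to 3.45) at day 15. Day 0 was highest, at log2 ratios of -1.34 and -1.25, but the intervals overlapped and no call was made. Eda2r (chromosome X, 97333840 to 97377216, minus strand) was at 0.298 (0 to 0.638), 2.31 (0.777 to 3.85) and 1.34 (0.340 to 2.33), apart at day 5 and not at day 15. Edar, the death domain receptor of the same ligand gene, was at 1.62 (0.281 to 2.95), 1.01 (0.0697 to 1.96) and 3.83 (1.32 to 6.34), highest at day 15 with overlap.

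TNF itself was not called in any of the comparisons. Tnf was at 3.60 (1.38 to 5.82) at day 0, 3.94 (1.48 to 6.40) at day 5 and 2.38 (0.647 to 4.11) at day 15, and all 3 intervals overlapped. Its widely expressed receptor Tnfrsf1a was at 28.5 (8.80 to 48.2), 43.5 (19.1 to 68.0) and 33.7 (10.6 to 56.8), above Tnf at each day without overlap. Tnfrsf1b, the receptor of leukocytes and endothelium, was at 1.08 (0 to 2.29), 5.16 (1.98 to 8.33) and 4.55 (1.19 to 7.91). Both later values were higher than day 0 by log2 ratios of 1.56 and 1.41, but the interval bounds overlapped and neither was called. The lymphotoxins Lta and Ltb had highest values of 0.122 and 0.317 FPKM, both at day 0, while their receptor Ltbr was at 72.5 (40.6 to 104), 86.6 (49.3 to 124) and 68.1 (38.4 to 97.8). The genes of Ltb, Tnf and Lta adjoin each other on chromosome 17, and of the 3 only Tnf reached an FPKM of 1.

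Among the rows of 1 member, receptors held most of the signal. The merged row with the ligands Tnfsf12 and Tnfsf13 is left out of these sums, so the ligand share of the whole family is not known. Summed over the 39 single-member rows, FPKM came to 295, 500.3 and 384 in day order. The 4 highest rows held 82.8%, 77.5% and 72.1% of these sums. The 15 ligand rows summed to 11.9, 23.4 and 16.2, and no ligand reached 10 FPKM. Tnfrsf12a, the TWEAK receptor Fn14 that is known to be induced in injured tissue, was first in order at each day, at 111 (11.8 to 209.7) at day 0, 235 (84.3 to 385) at day 5 and 136 (30.4 to 241) at day 15. The log2 ratio of 1.08 at day 5 passed the size threshold, but the wide intervals overlapped. The Tnfrsf12a row spans 23660523 to 23677449 on chromosome 17, well past the annotated gene at 23675445 to 23677468. Rows of Tnfrsf1a and Tnfsf9 also reach past their annotated genes. Whether other transcripts add to these values was not tested. Tnfrsf21, the death receptor DR6, was at 32.5 (18.4 to 46.6), 22.9 (12.3 to 33.6) and 36.6 (20.1 to 53.0). Ltbr was second in each group, followed by Tnfrsf21 and Tnfrsf1a at day 0, by Tnfrsf1a and Tnfrsf21 at day 5, and by Tnfrsf21, Tnfrsf11b and Tnfrsf1a at day 15. In the order of the 39 rows, all 38 neighbouring pairs had overlapping intervals in each group, so that adjacent positions are not distinguished.

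The remaining death domain receptors include Fas, the receptor of Fas ligand. Fas (chromosome 19, 34290666 to 34327772, plus strand) was at 1.53 (0.252 to 2.81) at day 0, 9.56 (1.34 to 17.8) at day 5 and 6.89 (0.0409 to 13.7) at day 15. Both later values were well above day 0, at log2 ratios of 2.06 and 1.64, but their intervals were broad and overlapped it. Fasl itself was at 0.0257, 0.129 and 0.123, and its interval reached 0 in each group. Tnfrsf25, the death receptor DR3, was at 0.820, 0.241 and 0.430.

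Among receptors without a death domain, Cd40, which activates antigen-presenting cells, had the lowest day 5 ratio of the single-member rows. Cd40 (chromosome 2, 165055627 to 165072948, plus strand) was at 5.997 (1.63 to 10.4) at day 0, 0.822 (0 to 1.71) at day 5 and 1.29 (0 to 2.67) at day 15. Day 0 stood above both later groups, at log2 ratios of -1.94 and -1.61, and the day 0 and day 5 intervals overlapped by a narrow margin. Its ligand Cd40lg, a T cell protein, was listed at 0 at day 0 and was at 0.163 and 0.0657 later. Tnfrsf18, the T cell receptor GITR, was at 3.47 (0.496 to 6.44), 9.18 (1.16 to 17.2) and 7.49 (1.07 to 13.9), with overlap. Of the 50-base words of Tnfrsf18, 18.7% occur in Gm16008 on the other strand. Tnfrsf9 was at 0.0190 (0 to 0.0961), 1.19 (0 to 2.38) and 0.772 (0.0445 to 1.50). Its ligand Tnfsf9 was at 0.398 (0 to 0.983), 1.92 (0.00733 to 3.83) and 0.871 (0 to 1.89), and neither gene was called. Tnfsf9 shares 11.5% of its 50-base words with Gm11110 on the other strand, which itself was at 0.0831, 1.35 and 1.16. Tnfrsf14, the receptor of the ligand LIGHT, was at 7.51, 7.01 and 10.4 with lower bounds of 0. Tnfrsf19, a receptor of epithelial and neural progenitors, was at 4.04 (1.65 to 6.42), 5.42 (2.47 to 8.36) and 7.29 (3.61 to 11.0). Tnfrsf13b, the B cell receptor TACI, was at 0.406, 0.671 and 1.61.

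Of the 15 single-member ligands, 10 stayed under 1 FPKM. There were 14 single-member rows under 1 FPKM in all groups, and the ligands among them were Cd40lg, Fasl, Lta, Ltb, Tnfsf13b, Tnfsf14, Tnfsf15, Tnfsf18, Tnfsf4 and Tnfsf8. The receptors Tnfrsf13c, Tnfrsf17, Tnfrsf25 and Tnfrsf8 were the others. Tnfsf14, the ligand LIGHT, was highest among the 14, at 0.0599 (0 to 0.174), 0.898 (0.0384 to 1.76) and 0.294 (0 to 0.653). Tnfsf4, the ligand of the costimulatory receptor OX40, was listed at 0 at day 0 and was at 0.379 (0 to 0.908) and 0.0527 (0 to 0.197). Lymphocyte markers were low as well. The 8 T cell markers summed to 3.08, 7.87 and 8.55 FPKM in day order, with Cd3d and Cd8a listed at 0 at day 0 and none of the 8 called apart. The 6 B and plasma cell rows summed to 0.613, 0.845 and 0.914, with Pax5 listed at 0 throughout, and the 4 natural killer rows to 0.317, 0.859 and 1.12.

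Set side by side, receptors were above ligands in most of the 21 pairs listed here, but without interval overlap only in a minority. In 21 pairs of single-member rows the receptor had the higher FPKM in 12 at day 0, 14 at day 5 and 14 at day 15. Intervals did not overlap in 8, 6 and 5 of these. The ligand was higher without overlap in 1 pair at day 0 (Eda over Eda2r), in 1 at day 5 (Tnfsf10 over Tnfrsf22) and in 2 at day 15 (Tnfsf10 over Tnfrsf22 and over Tnfrsf10b). Many pairs share a member, so these counts are not independent. In some pairs counted, such as Tnfsf8 with Tnfrsf8 and Tnfsf15 with Tnfrsf25, both members stayed under 1 FPKM at all days.

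**Figure D2:**
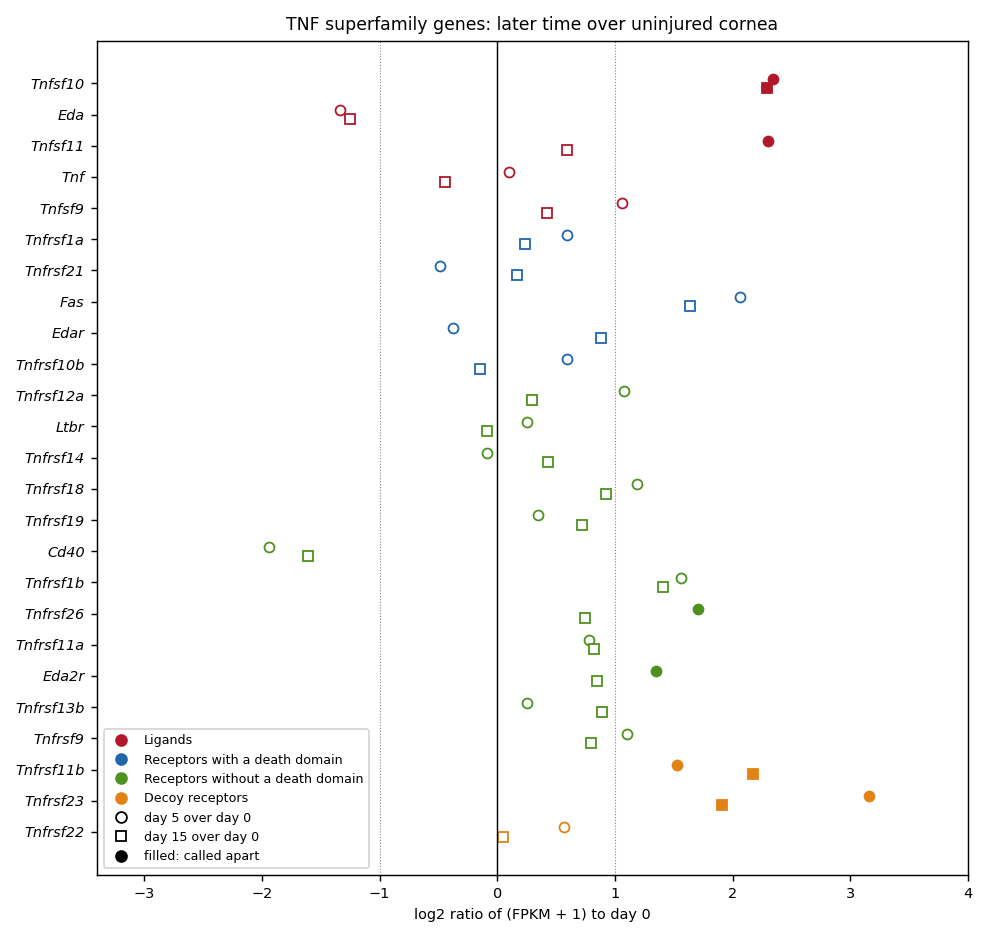
Log2 ratio of (FPKM + 1) to day 0 (x axis) for the same 25 rows (y axis), as circles for day 5 and squares for day 15, coloured by role and filled where the row was called apart. Dotted lines mark the size threshold of 1. Filled circles are Tnfsf10, Tnfsf11, Tnfrsf26, Eda2r, Tnfrsf11b and Tnfrsf23, and filled squares are Tnfsf10, Tnfrsf11b and Tnfrsf23.

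The 3 merged rows cannot be read as single genes. Tnfsf12, the ligand TWEAK, Tnfsf13, the B cell factor APRIL, and their fusion Tnfsfm13 share a row with Cd68, Eif4a1 and Senp3, which was at 579, 587 and 559. Tnfrsf4, the receptor OX40, shares a row with Sdf4, at 242, 230.1 and 247. No level of these members is given, and the ligand of Tnfrsf12a is therefore not measured here. The row of Cd27, a T cell costimulatory receptor, and Mir8113 was at 46.1 (38.8 to 53.3) at day 0, 0.144 (0 to 1.49) at day 5 and 0.199 (0 to 1.74) at day 15, lower and apart at log2 ratios of -5.36 and -5.29. All 129 bases of the Mir8113 hairpin (chromosome 6, 125234684 to 125234812) lie within annotated Cd27 exons. The row itself spans 125223516 to 125245384, well past the annotated Cd27 gene at 125232622 to 125237010 on both sides. The half-width of the day 0 interval of the Cd27 row was 15.7% of the value. Single-member rows of at least 1 FPKM at day 0 had half-widths of 43.4% to 111%. The call uses this narrow interval. Its nearest bounds differ 26.1-fold from those of day 5 and 22.3-fold from those of day 15. How the call would stand with a wider interval was not tested. Which of the genes on the row gave its signal, and whether transcripts outside them add to it, was not tested.

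Day 15 corneas are compared with day 0 corneas for what remained at the later time. Tnfsf10, Tnfrsf11b and Tnfrsf23 were higher and apart, at log2 ratios of 2.29, 2.17 and 1.91, and all 3 had been apart at day 5 too. Of 23 rows that reached 1 FPKM in these groups, 3 (13%) were higher and apart, beside 2.91% of 15186 loci. The merged Cd27 row was lower and apart, 1 of 23 (4.35%), beside 1.81%. Over all 42 rows, 31 values were higher and 11 lower, with a median log2 ratio of 0.17. Over all 28539 rows, 10576 were higher, 12479 lower and 5484 equal, with a median of 0. Among rows that reached 1 FPKM the median was 0.43 in the family and -0.10 over all loci. Both comparisons use the same day 0 samples. Tnfsf11, Tnfrsf26 and Eda2r had log2 ratios of 0.59, 0.75 and 0.85 and were not called.

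Day 15 is compared with day 5 for the course after injury. Tnfsf11 was lower and apart at day 15, at a log2 ratio of -1.72, which is 1 of 27 rows (3.7%) beside 0.388% of 14683 loci. No family row was higher and apart, beside 0.395% of loci. With no replicate columns there is no unadjusted p to set beside this count. Tnfrsf11b was 1.59-fold higher at day 15 and Edar 3.78-fold, both with overlapping intervals. Among the 25 single-member rows that reached an FPKM of 1, 16 were highest at day 5, 7 at day 15 and 2 at day 0.

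**Figure D3:**
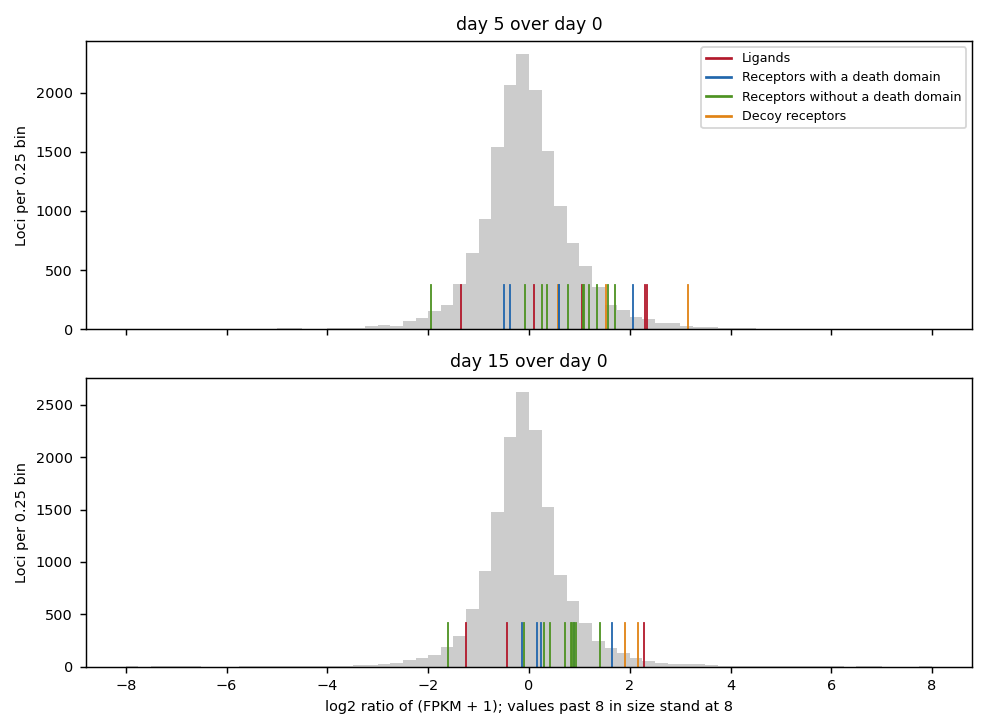
Histograms of the log2 ratio of (FPKM + 1) (x axis) over all loci that reached 1 FPKM (y axis, loci per bin of 0.25), for day 5 over day 0 (top) and day 15 over day 0 (bottom), with coloured lines at the single-member family rows. At day 5 the lines run from Cd40 at -1.94 to Tnfrsf23 at 3.16, and the median over all loci is -0.09.

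For the signalling proteins below the receptors, in a list of 41 adaptors, kinases and NF-kB subunits, 39 rows of 1 gene each were read and Rnf31 and Nfkbie were left out as merged with neighbours. At day 5, 1 of the 39 was above day 0 and apart, beside 3.42% of all loci, and 0 were below it and apart, beside 2.5%. These shares are near the background. Values were higher in 23 and lower in 16, and the median log2 ratio was 0.15. At day 15 none was apart in either direction and the median was 0.09, and against day 5 none was apart and the median was -0.10. The called gene was Mlkl, the pseudokinase that ruptures membranes in necroptosis, at 4.47 (1.11 to 7.83) at day 0, 18.0 (8.70 to 27.3) at day 5 and 9.75 (3.82 to 15.7) at day 15. Ripk3, the kinase that activates Mlkl and was named after its values were seen, was at 5.15 (0.924 to 9.38), 18.9 (7.97 to 29.7) and 7.34 (2.19 to 12.5), with overlap. Other uncalled rows past the size threshold at day 5 were Tnip3 at a log2 ratio of 1.35, Tnfaip3 at 1.01 and, downward, Traf5 at -1.50. The most abundant members were not called: the adaptor Tradd at 47.7, 32.4 and 38.2, the inhibitor Nfkbia at 44.6, 41.4 and 27.3, the initiator caspase Casp8 at 25.3, 33.7 and 41.6, and the ubiquitin ligase subunit Sharpin at 36.7, 34.4 and 36.2.

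Genes that NF-kB is known to induce were higher in part. Of 15 rows for 14 such genes, 13 reached an FPKM of 1 at day 0 or 5, and at day 5 6 of these were above day 0 and apart while 0 were below it and apart, beside 3.42% and 2.5% of all loci. The 15 rows had a median log2 ratio of 1.09. Icam1, an adhesion molecule for leukocytes, was at 4.14 (1.27 to 7.01) at day 0, 28.0 (14.9 to 41.1) at day 5 and 21.6 (11.3 to 31.9) at day 15, apart at both later days. Lcn2, a siderophore-binding protein that neutrophils also make, was at 0.942 (0 to 1.95), 32.8 (17.4 to 48.2) and 11.8 (4.60 to 19.0), likewise apart at both. Tnfaip2, Il6, Ptx3 and the endothelial selectin Sele were apart from day 0 at day 5 only. Tnfaip2 was at 4.50 (1.44 to 7.56), 41.1 (22.1 to 60.0) and 13.7 (6.79 to 20.5), and it was also lower and apart at day 15 against day 5. Irf1 was at 147, 69.2 and 116, Vcam1 at 28.2, 49.5 and 45.1, Sod2 at 45.4, 27.4 and 36.4, and the higher row of Bcl3 at 7.31, 25.3 and 13.5, none of them called. The neutrophil and endothelial sums given above were higher in the same samples, and which cells held these transcripts was not tested.

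**Figure D4:**
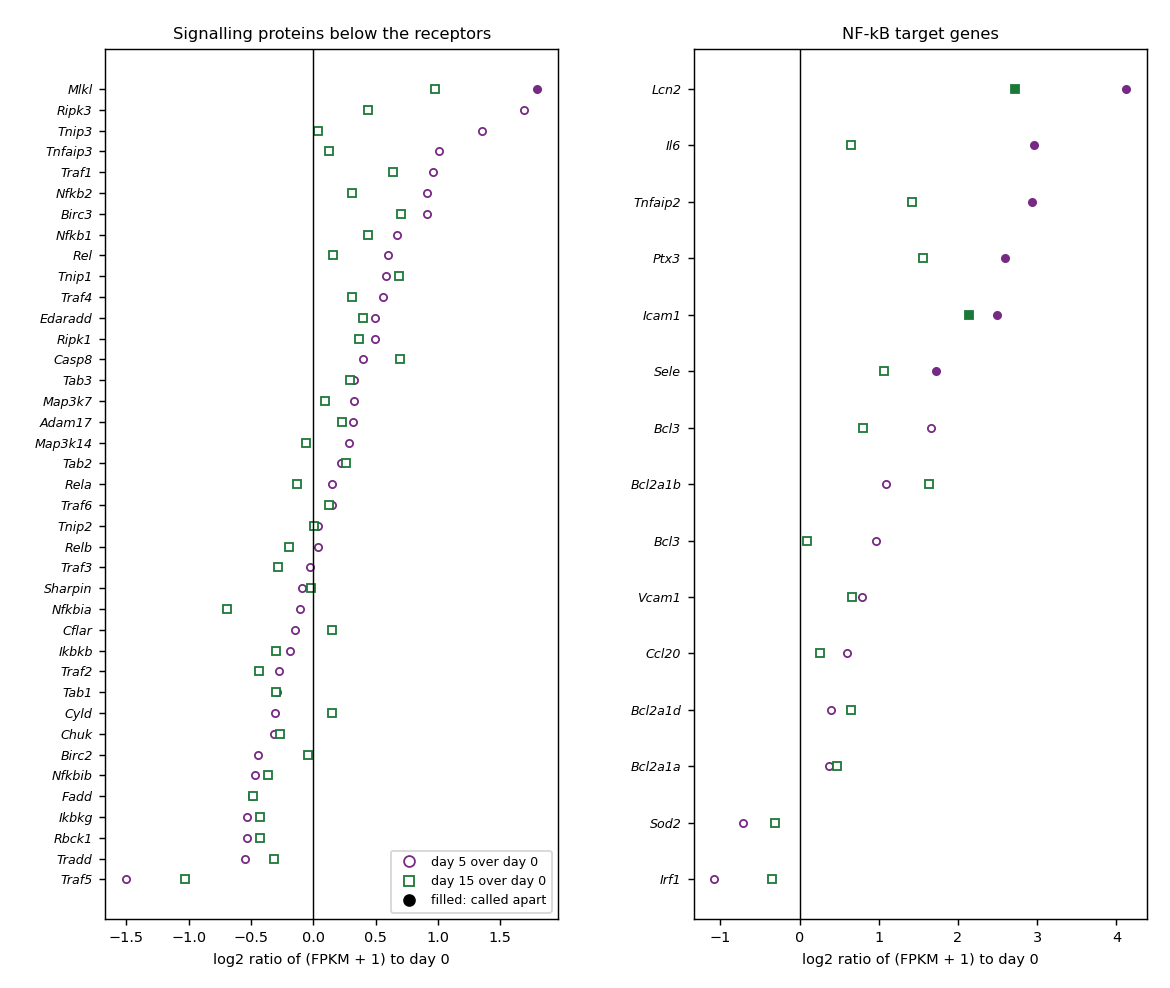
Log2 ratio of (FPKM + 1) to day 0 (x axis) for 39 signalling genes (left) and 15 rows of NF-kB target genes (right, with Bcl3 on 2 rows), as circles for day 5 and squares for day 15, filled where called apart. On the left only Mlkl is filled, at day 5, and on the right 6 circles and 2 squares are filled.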

How the data were processed

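FPKM were deposited by the authors in 1 gene table, with a value, a lower and an upper bound and a status per group, pooled over its 2 samples, per the file headers. Tools listed in the notes of the submitters on processing are Cufflinks 2.2.1, Cuffdiff (no version), Bowtie2 2.2.6 and TopHat2 2.1.0, with the build mm10. Whether the bounds hold replicate spread is not given in the sources used here. Loci were called apart on the whole table by the rule given in the report, with status OK in both groups, and family rows were then read out. The median half-width of the interval over single-member rows with FPKM of at least 1 was 72.9% of the value at day 0, 65.1% at day 5 and 73.8% at day 15.

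Members, lists and rule were chosen with earlier results of these data known. All members were to be named, with called list genes and the 4 most abundant others. Genes of marker lists on merged rows were left out. Coordinates of genes, exon overlaps and 50-base words come from GENCODE M21 (GRCm38, which is mm10). The calling code was tested on simulated data. Alternatives varied the pseudocount, the FPKM minimum, the size threshold, the interval rule, the scaling and the merged rows. Python 3.11.15, numpy 2.4.6, pandas 2.3.3 and matplotlib 3.10.9 were used.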

Additional observations from a re-analysis of the deposited data

How the results depend on the processing

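No paired analysis was possible because the table holds no column for a single sample, and for the same reason leaving out each replicate in turn was not run. Without the interval rule, 12 members were higher and 3 lower at day 5 against day 0, of 27 rows that reached 1 FPKM. At day 15 against day 0, 5 were higher and 3 lower of 23 such rows. At day 15 against day 5, 1 (Edar) was higher and 2 lower of 27. Over all loci this setting also raises the counts, to 1687 higher and 1722 lower at day 5 and to 1270 and 1432 at day 15 against day 0 (main counts 533, 389, 442 and 275). The added ones against day 0 at day 5 were Fas, Tnfrsf12a, Tnfrsf18, Tnfrsf1b, Tnfrsf9 and Tnfsf9 upward and Cd40 and Eda downward. With an FPKM minimum of 5, 3 members were higher at day 5 against day 0 (Tnfrsf11b, Tnfrsf23 and Tnfsf10), beside 430 of all loci. Tnfsf11, Tnfrsf26 and Eda2r were lost there. At day 15 against day 0, 2 were higher (Tnfrsf23 was lost), beside 360 of all loci. At day 15 against day 5, 0 were lower, as Tnfsf11 was lost. For day 15 against day 5, counts over all loci under these settings are not given here. With merged rows left out, 0 members were lower against day 0 at day 5 and 0 at day 15. By construction, these settings drop the interval condition, rows of low level and the Cd27 row. A pseudocount of 0.1, no FPKM minimum, a log2 threshold of 0.58 and rescaling to a common median changed no call and no direction of a called value among the 84 member ratios. The rescaling factor is 0.10 on the log2 scale for day 15 over day 0 and 0.09 for day 5 over day 0, and low members move less because of the pseudocount (Tnfsf11 is at 2.33 in place of 2.30 at day 5). The depth of the libraries is unknown, so that no detection limit can be given for members listed at or near 0.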
